A study of Rattus norvegicus with 20 samples.

Results

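The first day of Wnt stimulation was examined in 5 of the 20 libraries of the series, 3 taken after 1 d of constant stimulation (1 d ON) and 2 unstimulated ones taken at 0 d. The libraries were chosen by the treatment profile in their labels. All came from neural stem cells of the adult hippocampus of Fisher 344 rats, grown in culture on laminin with FGF-2. The 3 libraries of 1 d ON were all of the optoWnt genotype and differed in the inducer, which was CHIR99021, Wnt3a at 100 ng/mL, or light. The 2 libraries of 0 d received no inducer, and 1 was wild-type and 1 optoWnt. OptoWnt is a light-sensitive construct for switching on the pathway. It was carried by a virus into cells that were then selected with puromycin, so the optoWnt cells are a selected population. The labels place the treatment in a basal medium with a little serum, whereas growth medium holds FGF-2. Stimulus and medium therefore start together, and no unstimulated library of 1 d is part of the data used here. To place each change, 2 unstimulated libraries of 3 d (wild-type and optoWnt) were set beside the others. Their titles also carry the word ON, and the labels do not say if light reached those cells.

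Without a Wnt signal, a complex that holds APC, Axin and the kinase GSK-3 marks β-catenin for destruction. Wnt ligands such as Wnt3a, bound by Frizzled and LRP receptors, stop that complex, and CHIR99021 stops it by inhibiting GSK-3. β-catenin then enters the nucleus and switches on genes together with TCF and LEF factors. In the adult hippocampus the pathway is known for promoting the birth of neurons, while FGF-2 keeps cultured stem cells dividing, and its removal lets them differentiate.

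Ensembl IDs stand in for gene names, since nothing in the files used here ties an ID to a symbol. For the same reason the labelled cell type was not checked against its markers, no pathway or cell type list could be followed, and no sequence is shown. At most 2 IDs in each direction are named for a comparison. The 5 libraries held 3517961 (optoWnt 0 d), 2395962 (wild-type 0 d), 5125320 (CHIR99021), 1836461 (light) and 696463 reads (Wnt3a). The Wnt3a library was the shallowest of all 20, and 3 counts in it correspond to 4.21 CPM (reads scaled to the TMM-adjusted library total), against 0.573 CPM in the CHIR99021 library. These floors cover counting error only. Wild-type 0 d stood apart on the first principal component of log2 CPM (29.4% of the variance), with a score of -68.2 against 8.9 for optoWnt 0 d and 21.4 to 38.3 for the libraries of 1 d ON. The 5 others with low scores (-41.5 or below) were 1 unstimulated library (wild-type 5 d), light at 3 d ON, Wnt3a at 5 d ON, and the 2 d OFF libraries of Wnt3a and CHIR99021. Counts of calls and the 2-fold rule are given without wild-type 0 d as well, but medians, placements and single-inducer counts are given only with it.

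Within 1 d, 36 genes rose and 34 fell relative to 0 d among the 12190 tested (edgeR's quasi-likelihood test, Benjamini-Hochberg adjusted p under 0.05). These 70 genes are 0.574% of those tested, 0.295% higher and 0.279% lower. The smallest called change was 1.64 on the log2 scale, and the median standard error over all genes was 0.6. Smaller changes were thus mostly not detectable by this fit, and larger ones could be missed as well. One such was ENSRNOG00000002331 (log2 fold change 7.99, SE 2.02, edgeR adjusted p = 0.12). The median log2 fold change was 3.07 among the genes that rose (also 3.07 with the 2 genes without a read at 0 d set to their lower bound) and -2.95 among those that fell, against 0.025 over all genes tested. All but 4 of the 70 changed by more than 4-fold, and in all 70 the 3 libraries of 1 d ON did not overlap the 2 of 0 d. Of all genes tested, 18.2% lay above both libraries of 0 d in this way and 18.2% below. In 4 of the 70 the Wnt3a value was under that library's floor of 3 counts. Of these, 2 fell and had 0 reads there. The others rose and stood at 2.8 CPM under Wnt3a, which does not resolve their distance from 0 d in that library. The 70 genes were also well expressed, with a median of 46.7 CPM among those that rose and 104 CPM among those that fell, against 23 CPM over all genes tested. In bulk RNA, fewer cells that express a gene and less RNA per cell cannot be told apart.

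The genes that fell lost most of their reads. Together the 34 held 16700 CPM in wild-type and 12400 CPM in optoWnt cells at 0 d. At 1 d ON they held 1620 CPM under CHIR99021, 1530 CPM under Wnt3a and 1580 CPM under light, and in unstimulated cells of 3 d 1540 CPM (wild-type) and 1500 CPM (optoWnt). Their summed level after 1 d was thus close to that of unstimulated 3 d under each inducer. The 36 genes that rose summed to 535 and 665 CPM at 0 d in wild-type and optoWnt cells. After 1 d the sum was 5950 CPM with CHIR99021, 4460 CPM with Wnt3a and 4650 CPM with light, and it stood at 9910 and 7670 CPM at 3 d without a stimulus. Their sum at 1 d ON was below both libraries of 3 d under each inducer. A sum follows its most abundant genes, and the medians are given further on.

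ENSRNOG00000015736 gave the largest rise by the fitted fold change among called genes with a mean of 5 CPM or more. It had 0 reads in both libraries of 0 d, and stood at 25.2 CPM under CHIR99021, 15.4 CPM under Wnt3a and 11.5 CPM under light. All 3 were above the unstimulated 3 d levels of 4.25 (wild-type) and 3.59 CPM (optoWnt). With reads pooled over each arm, the rise was at least 39.1-fold against a floor of 3 counts over both 0 d libraries (edgeR adjusted p = 0.0051). CHIR99021 gave 132 of the 165 reads at 1 d ON, and the exact 95% interval of the pooled ratio starts at 31.5. Against 3 d its log2 fold change was 2.63 (SE 0.77), which was not called (edgeR adjusted p = 1). Without wild-type 0 d the call at 0 d was lost (edgeR adjusted p = 0.078), as it was without optoWnt 0 d (0.14), in a range of 3.3e-05 to 0.14 over all alternatives.

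ENSRNOG00000009582 came next among genes of that level. It had 1 read in wild-type (0.482 CPM) and 0 in optoWnt cells at 0 d, and stood at 14.5, 26.6 and 23.4 CPM under CHIR99021, Wnt3a and light. With 140 reads against 1, the ratio of pooled levels was 99.6, and counting error alone gave it an exact 95% interval of 17.6 to 3960. The call had an edgeR adjusted p of 0.0031. Here unstimulated 3 d stood higher, at 37 (wild-type) and 48.2 CPM (optoWnt), and the 3 libraries of 1 d ON lay between the 2 unstimulated times. Without optoWnt 0 d the call was lost (edgeR adjusted p = 0.14, the highest over the alternatives, with 1.6e-05 the lowest).

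Among the genes that fell, ENSRNOG00000020792 dropped from 227 CPM (wild-type) and 126 CPM (optoWnt) to 1.15 CPM under CHIR99021, 0 reads under Wnt3a and 5.21 CPM under light. Its mean was 176 ± 71.3 CPM (SD, n = 2) before and, with n = 3, 2.12 ± 2.74 CPM after. The log2 fold change was -6.50, with SE 0.998 and an edgeR adjusted p of 0.0051. Unstimulated cells of 3 d stood at 0.75 and 1.03 CPM, within the range of 1 d ON. The call was kept without wild-type 0 d (edgeR adjusted p = 0.029). It was lost without optoWnt 0 d (0.12) and without both Wnt3a and light (0.2), in a range of 4.3e-08 to 0.2. The fitted log2 fold change was -8.35 without optoWnt 0 d and -7.38 without light.

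ENSRNOG00000001785 was more abundant. It held 997 CPM in wild-type and 812 CPM in optoWnt cells at 0 d, and fell to 4.96 (CHIR99021), 22.4 (Wnt3a) and 30.7 CPM (light). Its log2 fold change was -5.88 (SE 0.65, edgeR adjusted p = 0.0007). The unstimulated levels of 3 d, 19 and 25.8 CPM, lay inside the range of the 3 inducers, of which CHIR99021 was lowest. This gene was called under each alternative run, with an adjusted p of 0.029 at most.

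**Figure D1:**
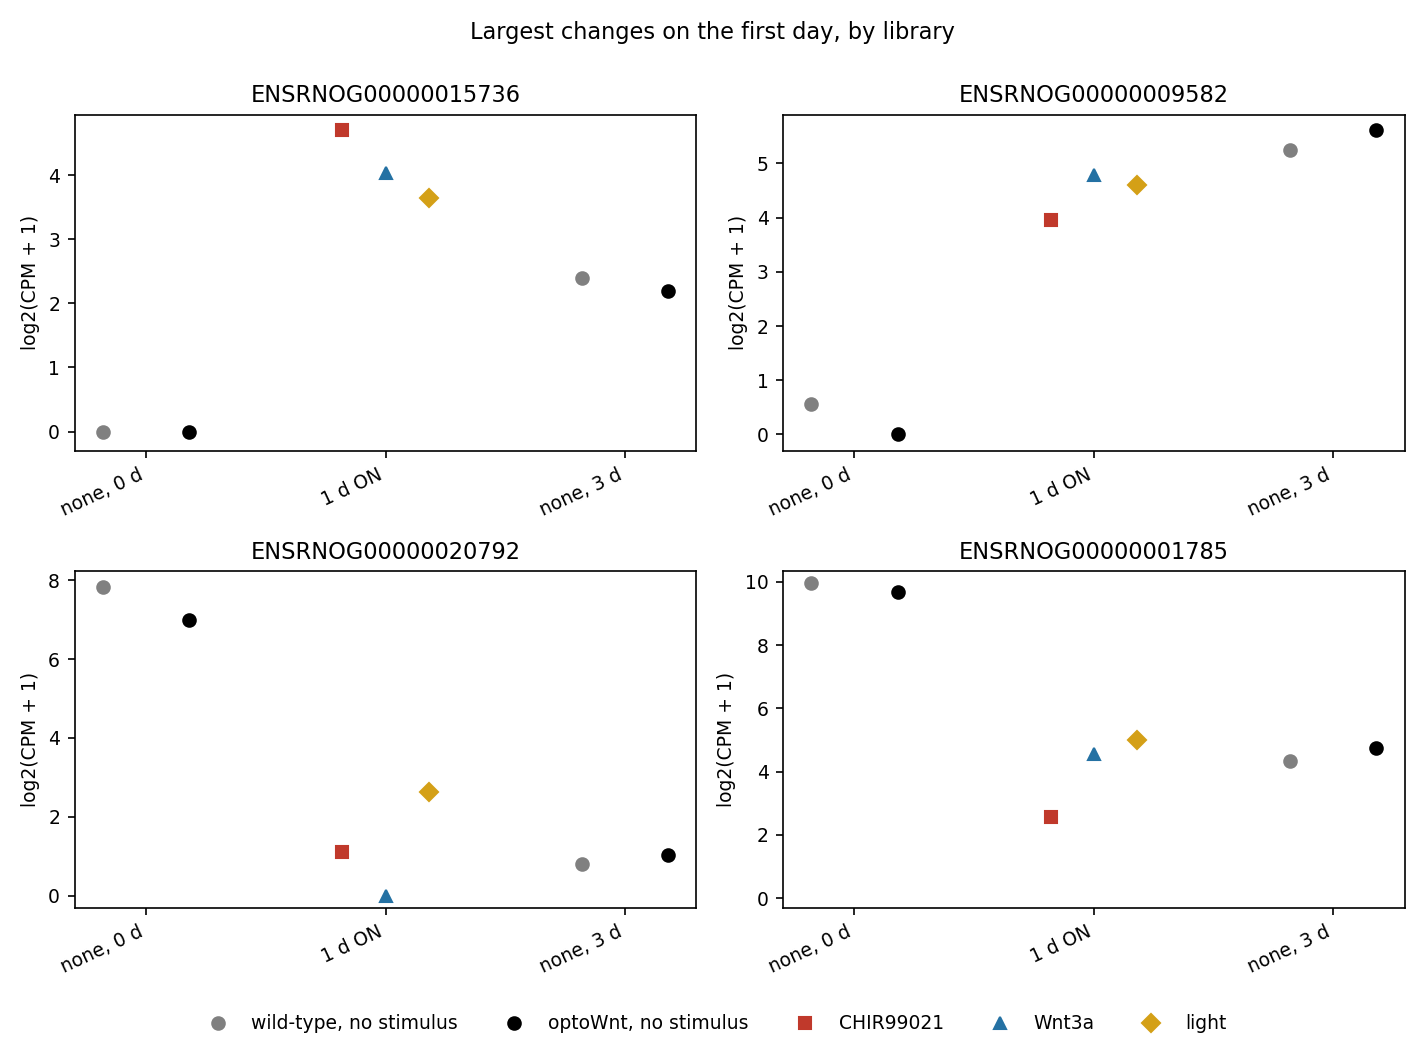
Each panel shows 1 gene, with log2(CPM + 1) on the vertical axis and the profile on the horizontal axis; each point is 1 library, with shape and colour giving the inducer or genotype. The libraries of 1 d ON do not overlap those of 0 d in any panel, whereas ENSRNOG00000015736 lies above, ENSRNOG00000009582 below and both genes that fell around the unstimulated 3 d libraries.

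The comparison with 3 d asks how much of the change at 1 d is also found in cells that had the new medium for longer without an inducer. Of the 36 genes that rose, 19 overlapped the unstimulated 3 d libraries at 1 d ON. Another 13 (36.1%) were lower in all 3 libraries of 1 d ON than in both of 3 d, where 10% of all genes tested were, and 4 (11.1%) were higher, where 9.53% were. The share of these 36 called genes past the 3 d level was thus near that of all genes. Of the 34 genes that fell, 22 overlapped the 3 d libraries, 9 (26.5%) had not fallen as far and 3 (8.82%) had fallen further, beside the same background of 9.53% above and 10% below. Among the 13 genes that had not risen as far, the median log2 difference from 3 d was -0.93, and among the 9 that had not fallen as far it was 0.98.

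Medians side by side give the same picture. The 36 genes had a median log2 fold change of 3.07 at 1 d ON and of 3.41 at unstimulated 3 d, both relative to 0 d. The 34 had -2.95 and -3.21. Over all genes, unstimulated 3 d against 0 d gave 252 calls (2.07%). These pairs share the 0 d libraries and the genes were chosen at 1 d, so they are a description only. Directly between 1 d ON and 3 d, the medians were -0.16 and 0.08. Of the 36 genes, 8 had an unadjusted p under 0.05 against 3 d in edgeR's test, 2 of them higher at 1 d ON, as had 3 of the 34 and 265 of all 12190. DESeq2 called 2 of the 36 against 3 d, edgeR with no low-count filter also 2, and edgeR with the first component as a covariate 1.

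**Figure D2:**
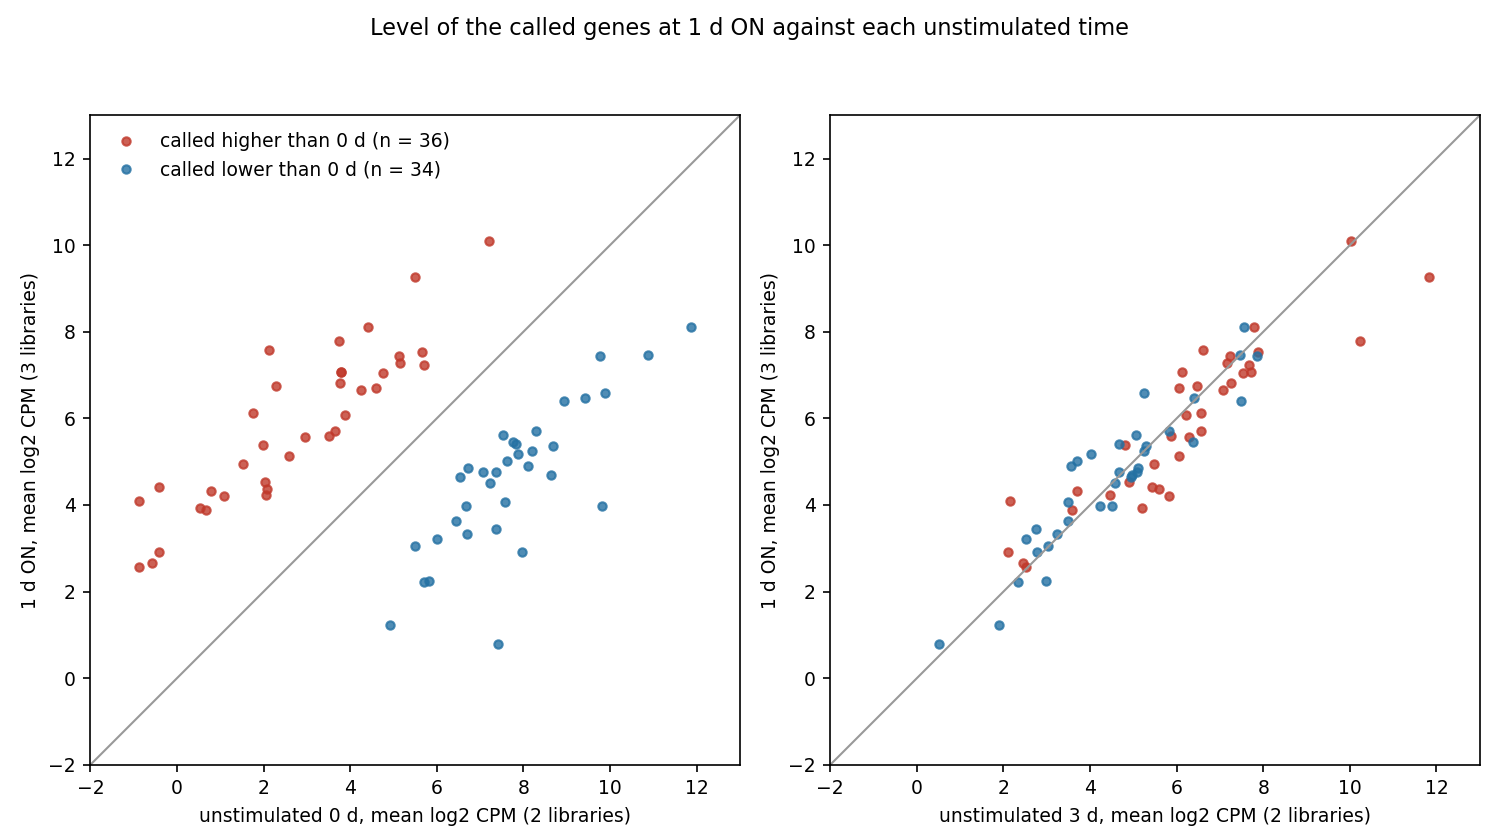
Mean log2 CPM of each of the 70 called genes at 1 d ON (vertical axis, 3 libraries) against unstimulated 0 d (left) and unstimulated 3 d (right, 2 libraries each); the line marks equal levels. The genes leave the line on the left, where they were chosen, and lie on both sides of it on the right, some well off it, with medians of -0.16 (rose) and 0.08 (fell) between 1 d ON and 3 d.

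The 70 genes were followed through all 20 libraries, as the median over genes of log2 CPM minus the mean of the 2 unstimulated 3 d libraries. The 36 genes that rose stood at -3.2 and -2.91 in wild-type and optoWnt cells of 0 d. At 1 d ON they were at -0.42 under CHIR99021, -0.29 under Wnt3a and -0.36 under light, and at 5 d without a stimulus at 0.57 (wild-type) and 0.23 (optoWnt). With CHIR99021 they reached 0.49 at 3 d ON and 0.01 at 5 d ON, and with light -0.08 at 3 d ON. After the stimulus was withdrawn for 2 d they stood at 0.01 (CHIR99021), 0.15 (Wnt3a) and -0.14 (light). The 34 genes that fell were at 3.36 and 2.98 at 0 d, and from 1 d onwards lay between -0.36 (Wnt3a 3 d ON) and 0.49 (light 1 d ON 1 d OFF). In the medians of both groups, the 0 d libraries were apart from the 18 others. The genes were chosen for a difference between 0 d and 1 d ON, so the distance of 0 d is in part built into the list.

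**Figure D3:**
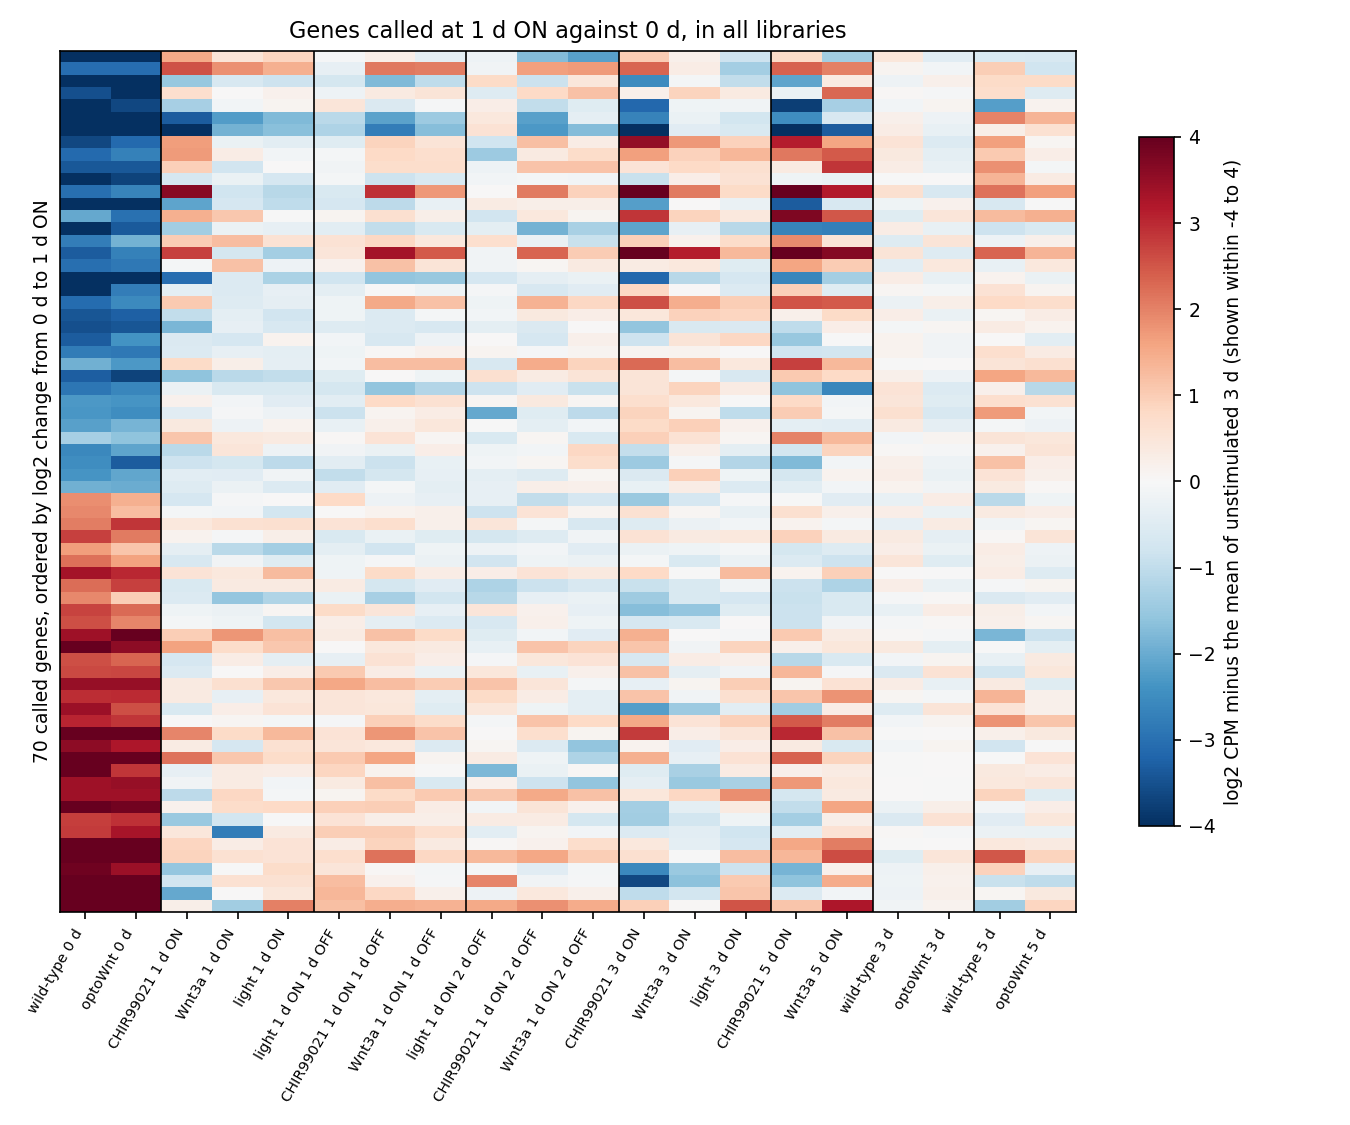
Each row is 1 of the 70 genes called at 1 d ON against 0 d and each column 1 of the 20 libraries; colour gives log2 CPM minus the mean of unstimulated 3 d, limited to the range -4 to 4. The 2 columns of 0 d, on which the genes were chosen, stand out by their medians, though some of their cells are pale. These medians are -3.2 and -2.91 for the genes that rose and 3.36 and 2.98 for those that fell.

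Tested over all genes, 1 d ON differed from unstimulated 3 d in 0 of 12190 genes (0% called). The smallest edgeR adjusted p was 0.13, and 265 genes had a raw p below 0.05. By DESeq2, 17 genes passed, 7 higher and 10 lower at 1 d ON. These fits do not show that the profiles act alike, since the median standard error of a log2 difference was 0.59.

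The smallest p among genes lower at 1 d ON than at 3 d belonged to ENSRNOG00000014571. It stood at 3.05 CPM under CHIR99021, 14 CPM under Wnt3a and 16.2 CPM under light, against 183 (wild-type) and 94.9 CPM (optoWnt) at 3 d and 2.41 and 4.26 CPM at 0 d. All 3 libraries of 1 d ON were below both of 3 d, with a log2 difference of -3.995 (SE 0.62, edgeR adjusted p = 0.13, DESeq2 adjusted p = 2.2e-06). edgeR called it without the 6 libraries of low first component scores (adjusted p = 0.0057), with the first component as a covariate (0.015), with no genotype term (0.024) and with no low-count filter (0.00023). ENSRNOG00000030515 stood at 43.3, 213 and 160 CPM in the same order, against 254 and 503 CPM at 3 d and 19.7 and 43.4 CPM at 0 d (log2 difference from 3 d -2.21, SE 0.38, edgeR adjusted p = 0.19). DESeq2 called it (adjusted p = 0.00019), as did edgeR when the first component was a covariate (0.015) and when low counts were not filtered (0.014). Under CHIR99021 it was still at the level of optoWnt 0 d. These genes, and those of the next 2 paragraphs, were singled out after their values were seen.

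Among genes higher at 1 d ON than at 3 d, DESeq2 called ENSRNOG00000011946 (adjusted p = 0.0068) and ENSRNOG00000060863 (0.0043), and edgeR called neither (0.85 for both). ENSRNOG00000011946 had 434, 268 and 416 CPM under CHIR99021, Wnt3a and light, against 124 and 104 CPM at 3 d, but stood at 499 and 505 CPM at 0 d. It was therefore lower, not higher, than at 0 d in all 3 libraries (log2 difference from 0 d -0.31, SE 0.39, edgeR adjusted p = 0.91). ENSRNOG00000060863 was different. It stood at 157 CPM under CHIR99021 and 38.6 CPM under light, but at 5.61 CPM under Wnt3a, against 4.33 and 6.53 CPM at 0 d and 1.25 and 4.1 CPM at 3 d. The Wnt3a value lay between those of the 2 libraries of 0 d, but it is 4 reads, near the 3-count floor of that library (4.21 CPM). Over all 3 inducers its log2 difference from 3 d was 4.09 (SE 0.97), which edgeR called with no low-count filter (adjusted p = 0.014). Without the Wnt3a library, ENSRNOG00000060863 and 2 other genes were called, all higher at 1 d ON (edgeR adjusted p = 0.045 for each), where 0 were called with it. All 3 genes stood at 5.61 to 21 CPM under Wnt3a and at 38.6 to 225 CPM under light and CHIR99021. At 3 d ON ENSRNOG00000060863 was high under all 3 inducers, with 210 (CHIR99021), 106 (Wnt3a) and 66.4 CPM (light). Once the stimulus had been off for 2 d it stood at 8.46, 6.34 and 4.63 CPM. Of these libraries, light at 3 d ON and Wnt3a and CHIR99021 at 2 d OFF are among the 6 of low first component score.

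A rule of size without a test gave few genes that stood at least 2-fold past both unstimulated times. At least 2-fold above both libraries of 0 d in all 3 libraries of 1 d ON were 217 genes (1.78% of 12190), and at least 2-fold below both were 342 (2.81%). The first number was 1572 without optoWnt 0 d and 516 without CHIR99021, and the second 1107 and 610. Without wild-type 0 d they were 305 and 466. With all 5 libraries, 43 of the 217 lay above both libraries of 3 d in all 3 of 1 d ON, where 9.53% of all genes did. Of the 342, 119 lay below both, where 10% of all genes did. The rule picks genes by their values at 1 d ON, so these counts are a description only. When 1 d ON had to be at least 2-fold past the libraries of 3 d as well, 5 genes remained above and 5 below (0.041% each). Of the 5 below, 1 had all 4 unstimulated libraries above the 3-count floor of the Wnt3a library, so the others lie at levels that this library cannot resolve. With all libraries thinned to 696463 reads, 1 gene was above and 0 were below. The number above rose to 23 without CHIR99021, 22 without Wnt3a, 10 without light and 12 without optoWnt 0 d. The number below rose to 92 without CHIR99021, 9 without light and 8 without optoWnt 0 d.

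Of the 5 above, ENSRNOG00000019500 had the widest margin between its lowest library of 1 d ON and the highest of 0 and 3 d. It stood at 34.2 CPM under CHIR99021, 5.61 CPM under Wnt3a and 37.5 CPM under light, with 0 and 1.7 CPM at 0 d and 0.25 and 1.71 CPM at 3 d. The Wnt3a value is 4 reads, near the 3-count floor of that library (4.21 CPM). It was not called against 0 d (log2 fold change 3.89, SE 1.41, edgeR adjusted p = 0.33). At 3 d ON it was at 49.2 (CHIR99021), 24.1 (Wnt3a) and 20.4 CPM (light), and 2 d OFF left 1.52, 3.46 and 7.49 CPM. ENSRNOG00000015736, described above, was the next. Another of the 5 was similar under all inducers, at 29.4 to 53.7 CPM at 1 d ON and at least 30.5 CPM in each library of 3 or 5 d ON, with 14.8 CPM at most in the 6 unstimulated libraries. It was not called against 0 d either (edgeR adjusted p = 0.072). The remaining genes of the 5 stood at 2.8 and 4.21 CPM under Wnt3a, under and at that floor.

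At 1 d each inducer was sequenced once, so inducers are set side by side without a test. Taken alone, the CHIR99021 library had 87 genes at least 4-fold above both libraries of 0 d (0.925% of 9402 with a mean of 5 CPM or more) and 107 below (1.14%). The Wnt3a library had 113 (1.2% of 9407) and 248 (2.64%), and the light library 122 (1.29% of 9454) and 223 (2.36%). With all libraries thinned to the same depth the numbers were 68 and 74, 92 and 125, and 106 and 155 in the same order. These counts share the 0 d libraries. Within the 70 called genes the median log2 difference from 0 d among genes that rose was 2.72 (CHIR99021), 2.94 (Wnt3a) and 2.76 (light), and among those that fell -3.02, -2.94 and -2.77. CHIR99021 was the furthest of the 3 from 0 d for 15 of the 36 and 17 of the 34 genes, Wnt3a for 14 and 11, and light for 7 and 6. CHIR99021 was also the least far for 14 and 10, Wnt3a for 8 and 7, and light for 14 and 17. The 3 inducers spanned a median of 1.05 log2 units among the genes that rose and 0.81 among those that fell, against 0.76 over all genes tested. They spanned more than 2-fold in 19 of the 36 and 12 of the 34 genes, and in 4281 of all 12190. The medians of the inducers thus lay near each other while single genes differed.

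A few genes set the CHIR99021 library apart from the other two. Of 8037 genes with a mean of 10 CPM or more over the 3 libraries of 1 d ON, 5 were at least 8-fold higher under CHIR99021 than under both other inducers and 5 lower (0.0622% each). ENSRNOG00000003745 stood at 346 CPM under CHIR99021, 15.4 CPM under Wnt3a and 12.5 CPM under light, against 2.89 and 3.98 CPM at 0 d. It is 1 of the 36 genes that rose over the 3 inducers (log2 fold change 4.04, SE 0.81, edgeR adjusted p = 0.032), and the Wnt3a and light levels were below the 42.8 and 17.4 CPM of unstimulated 3 d. That call did not hold without wild-type 0 d (edgeR adjusted p = 0.4), optoWnt 0 d (0.28), CHIR99021 (0.093) or light (0.098), in a range of 3.9e-05 to 0.45 over all alternatives. Its fitted log2 fold change was 3.26 without CHIR99021 and 4.95 without optoWnt 0 d. The fit without CHIR99021 at 1 d keeps the inducer terms of the other profiles, so 3.26 is not the rise under Wnt3a and light. Under CHIR99021 it reached 1290 CPM at 3 d ON and 1470 CPM at 5 d ON. ENSRNOG00000058645 stood at 139, 5.61 and 6.77 CPM in the same order, with 67 and 86.9 CPM at 0 d and 12 and 13.2 CPM at 3 d. It was lower than at 0 d under Wnt3a and light and higher under CHIR99021. Over the 3 inducers edgeR did not call it against 0 d (adjusted p = 0.063), while DESeq2 did (0.0022).

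In the other direction, ENSRNOG00000021023 stood at 3.44 CPM under CHIR99021, 51.9 CPM under Wnt3a and 62 CPM under light. Its level was 4.33 and 2.27 CPM at 0 d and 598 and 664 CPM at 3 d without a stimulus. The Wnt3a and light libraries thus stood above both libraries of 0 d and the CHIR99021 library between them. CHIR99021 was still at 3.8 CPM at 3 d ON. Over the 3 inducers this gene was not called against 0 d (log2 fold change 3.07, SE 1.37, edgeR adjusted p = 0.49). ENSRNOG00000003171 was also lowest under CHIR99021, with 0.764, 30.8 and 21.9 CPM under CHIR99021, Wnt3a and light, 1.93 and 0.852 CPM at 0 d and 212 and 177 CPM at 3 d. It was not called against 0 d either (edgeR adjusted p = 0.58).

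The Wnt3a library was never at least 8-fold above the other two, and 4 genes were at least 8-fold below (0.0498%). ENSRNOG00000002331 was at 459 CPM under CHIR99021 and 242 CPM under light, with 7.01 CPM under Wnt3a. It stood at 0.482 and 0.852 CPM at 0 d and 4.5 and 6.84 CPM at 3 d, so that the Wnt3a value was close to that of unstimulated 3 d. Its fitted rise was not called (log2 fold change 7.99, SE 2.02, edgeR adjusted p = 0.12, DESeq2 adjusted p = 0.00012). With Wnt3a for 3 d it reached 1800 CPM, and with light 1150 CPM. After 2 d OFF it was at 19.3 (CHIR99021), 16.7 (Wnt3a) and 8.81 CPM (light). ENSRNOG00000008570 had 24.6 and 9.9 CPM under CHIR99021 and light and 0 reads under Wnt3a, which allows up to 4.21 CPM, so at this depth an 8-fold distance from light was not detectable. The part of the low depth of the Wnt3a library in these values was not tested. A weak response and a well that holds another sample than its label cannot be told apart there, and every mean over the 3 inducers includes this library. The light library had 0 genes 8-fold above or below both others.

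Another 2 genes were followed because a comparison of the same series, not shown here, had picked them as raised by all sustained inducers. It used 3 and 5 d ON, and light has no library of 5 d ON. ENSRNOG00000026053 stood at 18.9 CPM under CHIR99021, 1.4 CPM under Wnt3a and 2.08 CPM under light at 1 d. It had 0 reads at 0 d and 2 and 0.684 CPM at 3 d. ENSRNOG00000040287 stood at 63, 0 and 4.69 CPM, with 0.482 and 0.284 CPM at 0 d and 1.75 and 0.855 CPM at 3 d. The Wnt3a values of the pair are 1 and 0 reads, under the floor of that library (4.21 CPM), and the light values 4 and 9 reads. Against 0 d edgeR called neither (adjusted p = 0.15 and 0.072) and DESeq2 called both (0.0079 and 0.0031). Against 3 d DESeq2 called ENSRNOG00000040287 (adjusted p = 0.03) and edgeR did not (0.93). At 1 d both were highest under CHIR99021.

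**Figure D4:**
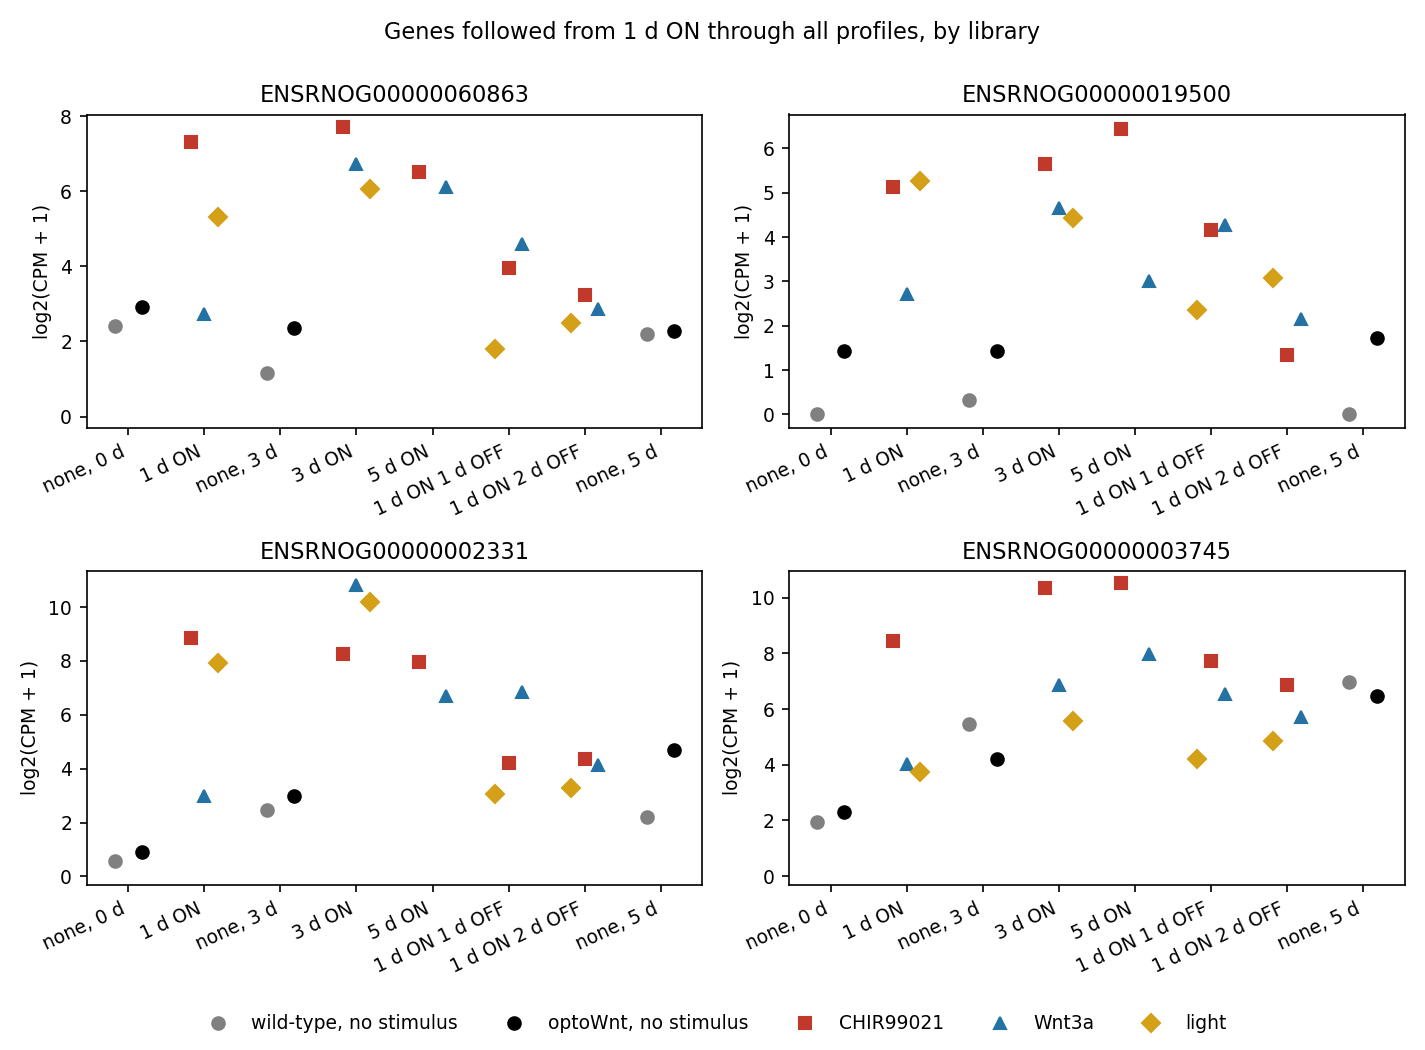
Each panel shows 1 gene that stood high in some or all libraries of 1 d ON, with log2(CPM + 1) on the vertical axis and all 8 profiles on the horizontal axis; each point is 1 library. In the panels of ENSRNOG00000060863 and ENSRNOG00000002331 the Wnt3a library of 1 d ON (5.61 and 7.01 CPM, from 4 and 5 reads) lies with the unstimulated libraries. ENSRNOG00000003745 is highest under CHIR99021 (346 CPM at 1 d ON).

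The number of genes called against 0 d depended on single libraries. It was 24 without wild-type 0 d, 4 without optoWnt 0 d, 28 without light, 53 without Wnt3a and 68 without CHIR99021, and in the first pair of fits the lone 0 d library is assumed to vary like the other groups. All 24 and all 4 were among the 70, and 45 of the 68 were. The 4 genes left without optoWnt 0 d were the ones called in all 5 of these fits. In each alternative fit all of the 70 that were tested kept their direction (69 genes in the fit of the 5 libraries alone without genotype and inducer terms, 70 in the others). The genes were chosen for this difference and the fits share libraries, so the kept direction is largely built in. DESeq2 called 283 genes, among them all 70.

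**Figure D5:**
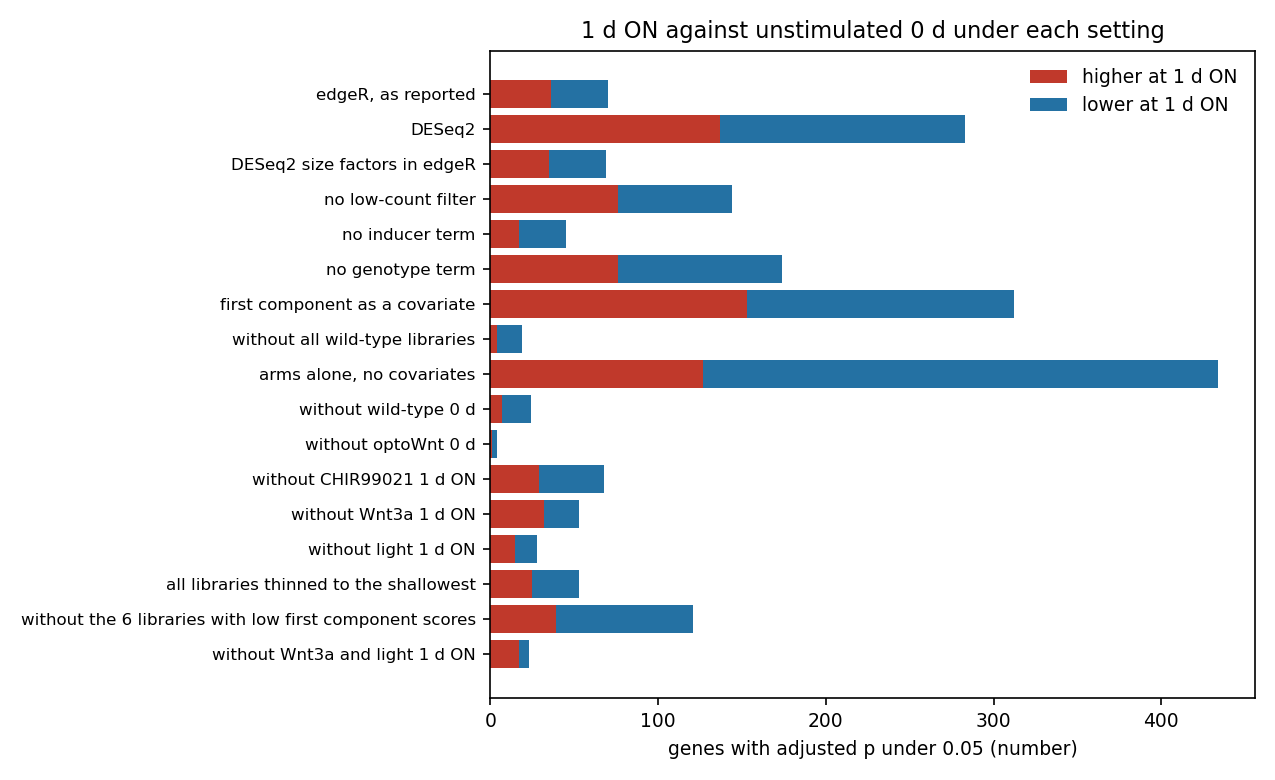
Bars give the number of genes called at 1 d ON against unstimulated 0 d (adjusted p under 0.05), higher in red and lower in blue, under each setting on the vertical axis. The number is 70 as reported, falls to 4 without optoWnt 0 d and rises to 434 when the 5 libraries are fitted alone without genotype and inducer terms.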

How the data were processed

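The authors deposited raw counts of reads per gene, unnormalized, for 32623 Ensembl gene IDs in 20 wells, each tied to its library by the well named in the labels. Libraries were made with Lexogen's QuantSeq 3' kit for low RNA input, per the labels' protocols. Bowtie2, Subread, featureCounts and Rnor_6.0 are named in the submitters' processing notes. The sources used here give no versions, strand setting or treatment of multiply mapped reads, so reads of near-identical or overlapping genes may be misassigned. Counts of 3' ends need no length correction.

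The counts were tested with edgeR 4.0.16 (quasi-likelihood, TMM scaling, filterByExpr by profile, 12190 genes kept; R 4.3.3). A single additive model of all 20 libraries had 8 profiles, genotype and inducer (11 coefficients, 9 residual degrees of freedom), with inducer summing to 0 over the 3 inducers, so 1 d ON is a mean over inducers at the optoWnt genotype. Benjamini-Hochberg adjustment ran over all genes, and called means an adjusted p under 0.05. Standard errors are the log2 fold change over the square root of F. Rules of size used log2 CPM with a prior count of 2. No combination of profile, genotype and inducer was repeated, and separate cultures are not stated. The p-values therefore measure the spread that the additive model leaves between these libraries, which may be technical. That spread also takes in inducer effects that change between profiles and genotype effects that change with time. Pairs within a profile differed beyond sampling noise (lowest chi-square per degree of freedom 5.11).

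Named IDs were, of the called genes that averaged 5 CPM or more and whose arms do not overlap, the 2 that rose and the 2 that fell most, and for each inducer up to 2 in each direction at least 8-fold from both others. Of the IDs, 0 matched a symbol, so the 19 gene lists prepared were not run. Comparisons, lists and rules were chosen with earlier results of these data known. The script was tested on simulated data. Alternatives were DESeq2 1.42.0, other scaling, filter and covariates, thinning to 696463 reads and leaving out libraries.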

Additional observations from a re-analysis of the deposited data

Results flagged for a closer look

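Of the 19 genes followed singly, not all of them named in the text, 2 had inducers on opposite sides of both 0 d libraries. This difference was not tested because each inducer has 1 library at 1 d. Over all genes tested, 1891 (15.5%) had inducers on opposite sides in this way, so the pattern is common. The condition was revised after a first form had picked a gene on a 0 in the shallow Wnt3a library. ENSRNOG00000058645 was above both 0 d libraries (67 and 86.9 CPM) under CHIR99021, at 139 CPM, and below both under Wnt3a (5.61 CPM) and light (6.77 CPM). ENSRNOG00000003171 was above both 0 d libraries (1.93 and 0.852 CPM) under Wnt3a, at 30.8 CPM, and light, at 21.9 CPM. Under CHIR99021 it stood at 0.764 CPM, which is 4 reads against 4 and 3 reads at 0 d, so a fall there was not detectable at this depth.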

How the results depend on the processing

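Against 0 d, where 70 genes were called, DESeq2 called 283, edgeR with no low-count filter 144, no inducer term 45, no genotype term 174, the first component as a covariate 312, no wild-type libraries 19, the 5 libraries alone without genotype and inducer terms 434, no libraries of low first component scores 121 (an alternative added after the data were seen, as were the next, the thinning of single inducers and the rule against 0 d and 3 d together) and CHIR99021 alone at 1 d 23. Leaving out single libraries gave 4 to 68. Against 3 d, where 0 were called, the same settings gave 17 (DESeq2), 11 (no filter), 1 (no genotype term), 6 (first component), 1 (the arms alone) and 1 (no low-score libraries), and 0 to 3 without single libraries. Unstimulated 3 d against 0 d gave 252 calls (2.07% of genes), and 631 (DESeq2), 384 (no filter), 141 (no inducer term), 683 (first component), 2 (no wild-type), 448 (the arms alone), 138 (no low-score libraries) and 17 to 75 without single libraries. The cause of these shifts was not tested. DESeq2's size factors in edgeR gave 69, 0 and 248. Without single libraries, the 2-fold rule against 0 d gave 281 to 1572 genes higher and 411 to 1107 lower, and against 0 d and 3 d 5 to 23 higher and 7 to 92 lower. With a prior count of 0.5 the last was 16, and with all libraries thinned 1 was higher and 0 were lower. At 8-fold in place of 4-fold the single libraries had 32 and 30 genes higher and lower (CHIR99021), 36 and 81 (Wnt3a) and 28 and 45 (light), and thinning gave 125 lower under Wnt3a. Placement against 3 d after thinning was 4, 19 and 13 of the genes that rose and 4, 23 and 7 of those that fell (past, overlapping and short of 3 d). The gene lists were not run for want of symbols. No paired analysis was possible because the labels give no replicate numbers.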
